A study of Mus musculus with 3 samples.

Results

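Expression of 9 genes of prostaglandin synthesis, reception and breakdown was followed in cardiac myofibroblasts that were attached to plastic, moved into suspension and attached again. The genes were Pla2g4a, Ptgs1, Ptgs2, Ptges, Ptgis, Ptgds, Ptger2, Ptger4 and Hpgd. They were chosen by name for their place in the pathway, with earlier results of these data known, and were 9 of 15393 genes measured. They were read by 11 probes in 20 spots, matched through the RefSeq transcript name of each probe, and all 11 probes stood well above background in every state.

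The cells came from infarcted hearts of male C57BL/6J mice, taken 3 days after the left anterior descending artery had been tied off for good. Age was given as 8 weeks in one label and as 10 weeks at surgery in another. All groups shared this injury, overnight attachment to plastic and depletion of cells that carry CD45, a surface protein of leukocytes. The adherent group was kept on plastic plates, the non-adherent group was taken from plates into suspension culture, and the re-adherent group was put back on plastic after suspension. Each group was 1 array, of material mixed from hearts of 3 plates, with no genetic change or drug in any of them. Time in culture grew with each step, so time and culture state cannot be told apart, and per the study's methods most cells were lost in suspension. With 1 array per group there is no replicate check and no p-value, and the errors given are technical errors within arrays.

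Prostaglandins are short-lived lipid signals made from arachidonic acid. Cytosolic phospholipase A2 (Pla2g4a) frees arachidonic acid from membranes, the cyclooxygenases (Ptgs1 and Ptgs2) turn it into prostaglandin H2, and terminal synthases then make prostaglandin E2, prostacyclin or prostaglandin D2. These act on G protein-coupled receptors of the same or neighbouring cells and are removed by uptake and oxidation, for which Hpgd encodes the main enzyme. Fibroblasts of the heart are a known source of prostacyclin and prostaglandin E2.

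In suspension, Ptgs2 and the prostacyclin synthase gene Ptgis were lower, and Hpgd, the prostaglandin E2 receptor gene Ptger2 and the prostaglandin D2 synthase gene Ptgds were higher than on plastic. On re-adhesion each of these 5 genes moved back, and Hpgd was still 8.43-fold above its first level in re-adherent cells. The other 4 members, read by their brightest probe, differed less than 2-fold in each of the 3 pairs of arrays.

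Ptgs2 had the largest negative and Hpgd the largest positive difference in suspension among the 9 genes, so the sequences around their annotated starts are shown, 250 bases before and 30 bases after the start, from RefSeq on GRCm38.p6. Of the 9 members, 8 have such an entry in the table used, and Ptgis does not. Capitals mark matches on either strand to the cyclic AMP response element core TGACGT, the E-box CACGTG, the C/EBP palindrome TTGCGCAA, the TATA box TATAAA, the TEAD site GGAATG or the AP-1 site TGANTCA. The Ptgs2 window lies at chr1:150099781-150100060 and the Hpgd window at chr8:56294302-56294581, both on the plus strand.
Ptgs2: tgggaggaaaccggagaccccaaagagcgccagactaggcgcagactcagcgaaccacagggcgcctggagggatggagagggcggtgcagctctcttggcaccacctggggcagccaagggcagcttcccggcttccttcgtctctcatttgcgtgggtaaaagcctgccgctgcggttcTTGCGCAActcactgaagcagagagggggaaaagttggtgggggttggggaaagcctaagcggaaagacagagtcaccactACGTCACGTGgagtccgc
Hpgd: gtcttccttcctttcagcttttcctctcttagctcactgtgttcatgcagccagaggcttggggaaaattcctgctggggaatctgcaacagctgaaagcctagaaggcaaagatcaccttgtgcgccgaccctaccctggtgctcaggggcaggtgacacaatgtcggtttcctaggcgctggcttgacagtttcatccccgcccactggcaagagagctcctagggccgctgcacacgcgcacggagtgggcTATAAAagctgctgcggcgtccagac

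In the Ptgs2 window the C/EBP palindrome covered bases -69 to -62 from the start. The cyclic AMP response element core, read on the minus strand as ACGTCA, covered bases 13 to 18 after the start and overlapped the E-box at bases 17 to 22. In the Hpgd window the only match was a TATA box at bases 5 to 10 after the start. The palindrome was found in 0.18% of 32851 windows of this length, the response element core in 7.26%, the E-box in 6.79% and the TATA box in 13.1%. Of the other members' windows, that of Ptges held a TEAD site (13.9% of all windows), that of Ptgds an AP-1 site (7.46%) and 1 of the 2 Pla2g4a windows a TATA box, while Ptgs1, Ptger2 and Ptger4 held no match. These matches describe the sequence, and no binding was measured.

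The arrays were scaled by the 75th percentile of their signal, which was 651 intensity units on the adherent, 697 on the non-adherent and 541 on the re-adherent array. All levels below are log2 signals relative to that percentile, and differences are differences of these levels. The technical error of such a difference, from the software's own spot errors, was 0.20 in the median gene. Of 59305 non-control spots, 53.9% to 59.9% were well above background, and no spot was saturated.

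Markers of the labelled cell type were present. All 10 myofibroblast and fibroblast markers, among them Acta2, Col1a1 and Thy1, were well above background on the 3 arrays. Their summed level, in multiples of the 75th percentile, was 1904 in adherent, 646 in non-adherent and 1848 in re-adherent cells. In suspension all 10 differences were negative, that of Postn (-0.12) within its technical error of 0.20. Of the 10, 5 were over 2-fold lower, beside 14.7% of all genes, with Acta2 99.4-fold and Thy1 11.3-fold lower. These were the same arrays in which Ptgs2 and Ptgis were lower. On re-adhesion 8 of the 10 were higher, and Postn (-0.09) and Pdgfra (-0.05) were not. The part of these marker differences in the values of Ptgs2 and Ptgis was not tested. Other cell types were present too. Of 18 macrophage markers 16 were measured, and their summed level was 218 on the adherent, 1330 on the non-adherent and 447 on the re-adherent array. Of these, 15 were over 2-fold higher in suspension, beside 17.2% of all genes. The defining markers Ptprc, Adgre1, Csf1r and C1qa were well above background on each array. Summed endothelial markers stood at 23.5, 37.4 and 22.2 in the same order, with Pecam1 and Cdh5 well above background throughout, but single markers differed more than this sum. Between re-adherent and adherent cells their median difference was -1.77 and Cdh5 was 9.04-fold lower. Kdr, the brightest of these markers on both arrays, was 1.31-fold higher by its brighter probe, while its other probe differed by -1.23. Tie1, Emcn and Cldn5 were below the detection limit after re-adhesion, as was Erg, which was below it in adherent cells too. In such bulk RNA, fewer cells of a type and less RNA per cell cannot be told apart.

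**Figure D1:**
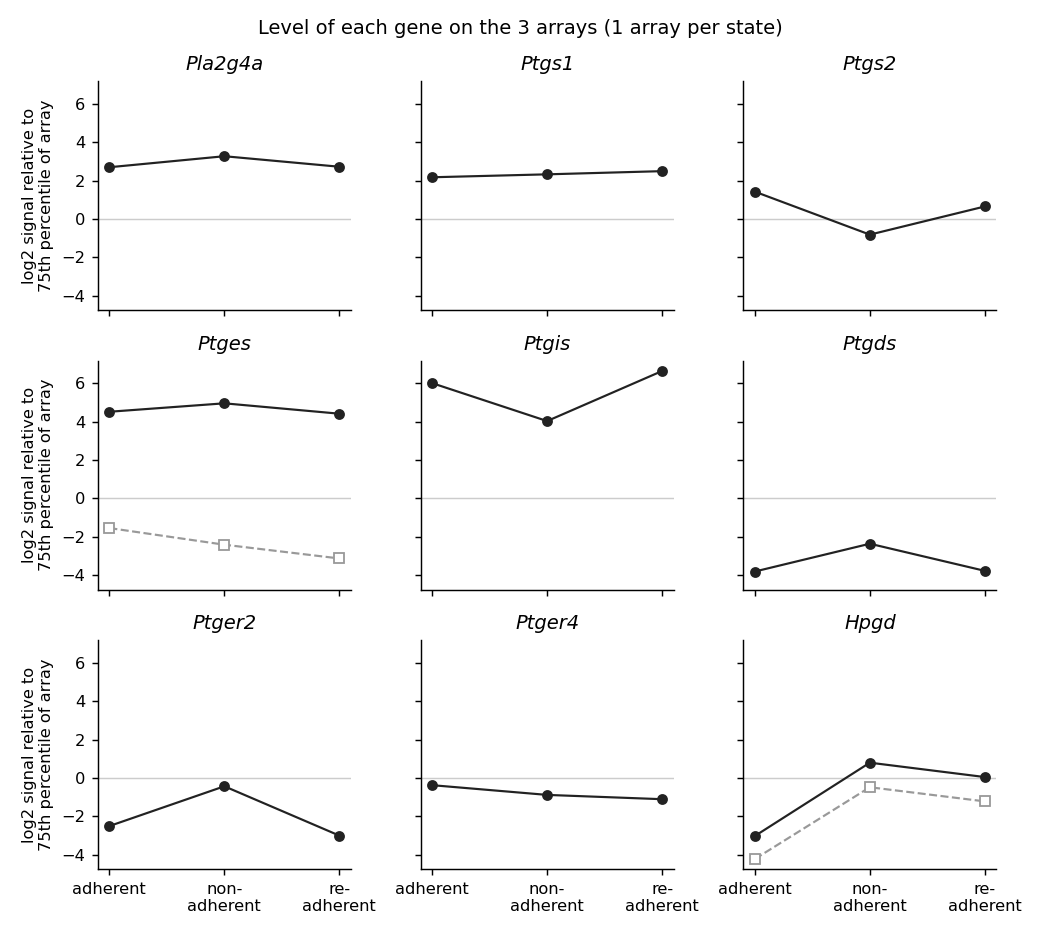
Level of each of the 9 genes in the 3 culture states, as log2 signal relative to the 75th percentile of the array (1 array per state). Filled circles and solid lines show the brightest probe of a gene, open squares and dashed lines a further probe; Ptgs2 and Ptgis dip in suspension, whereas Ptger2, Ptgds and Hpgd peak there.

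Pla2g4a and Ptgs1 differed by less than 2-fold between the states. Pla2g4a, whose product releases arachidonic acid, had a signal of 4213 units on the adherent, 6714 on the non-adherent and 3568 on the re-adherent array. Its log2 difference was 0.57 in suspension against adherent cells, with a technical error of 0.20, and -0.55 on re-adhesion. The re-adherent level was within 0.03 of the adherent level. Ptgs1, the constitutive cyclooxygenase, had signals of 2931, 3488 and 3041 units in the same order. Its differences of 0.15 in suspension and 0.17 on re-adhesion were smaller than their technical error of 0.20, and both changed sign under other scalings.

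Ptgs2, the inducible cyclooxygenase and the rate-setting enzyme of prostaglandin bursts, was lower in suspension. Its probe was spotted 10 times on each array, so its signal has a spread within each array. The signals lay between 1591 and 1935 units on the adherent array, with a median of 1744. On the non-adherent array the 10 spots lay between 278 and 430 units, with a median of 416. After re-adhesion they lay between 768 and 942 units, with a median of 851. The 3 sets of spots did not overlap: each adherent spot was above each re-adherent spot, and each re-adherent spot was above each non-adherent spot. These spots share 1 RNA sample per array, so they show the precision of the measurement and not the spread between cultures.

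As the mean over spots, the log2 difference of Ptgs2 was -2.24 ± 0.15 (SD over 10 spots) in suspension against adherent cells, a 4.73-fold lower level. On re-adhesion it was 1.47 ± 0.19 (SD over 10 spots), a 2.77-fold higher level. That value was the top of its range over 11 other settings, which went down to 1.05 with local background subtracted. It passed 2-fold in all 11, but raising low signals, requiring detection, keeping flagged spots and averaging over probes could not change this gene. Re-adherent cells ended at -0.77 ± 0.07 (SD over 10 spots) against adherent cells, so that the first level was not reached. This last difference passed 2-fold under 3 of 11 other settings, with -1.24 after scaling to spike-in probes. The dimmest non-adherent spot, at 278 units, stood apart from the other 9, the next of which was at 374. Without it the 3 differences were -2.20, 1.41 and -0.78.

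A bright patch of an array raises spots that have nothing in common but their place, so the surroundings of each Ptgs2 spot on the re-adherent array were read. Within 5 rows and columns, spots that were dim on both other arrays were counted, and the share of them that was lit, or well above background, after re-adhesion was taken. Over the whole array that share was 2.77%. Around 7 of the 10 Ptgs2 spots no such spot was lit. Around the remaining spots 2 of 45 (4.44%), 6 of 52 (11.5%) and 10 of 42 (23.8%) were lit, and the last of these lay above the 95th percentile of all spots, 14.3%. That spot, at row 331 and column 137, was the brightest of the 10 on the re-adherent array, with 942 units, and its difference from the adherent array, -0.70, lay within the range of the other 9 spots, -0.85 to -0.65. Without it the mean difference between re-adherent and adherent cells was -0.78 in place of -0.77. Within 10 rows and columns the spot at row 169 and column 55, with no lit neighbour in the narrower window, had the highest share of all member spots, 19 of 149 (12.8%), and its difference was -0.81. In the narrower window 1 of 10 Ptgs2 spots thus lay above the 95th percentile, and the values of the gene were as large without it. The median difference of neighbouring spots between the re-adherent and non-adherent arrays was 0.77 around this spot. It was 0.60 around the spot at row 189 and column 135, and 0.35 over all non-control spots. Around the other Ptgs2 spots it lay between 0.20 and 0.45. No value was taken with both raised spots left out. Around the 10 spots of the other members, the lit share within 5 rows and columns was 0 to 5.45%.

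**Figure D2:**
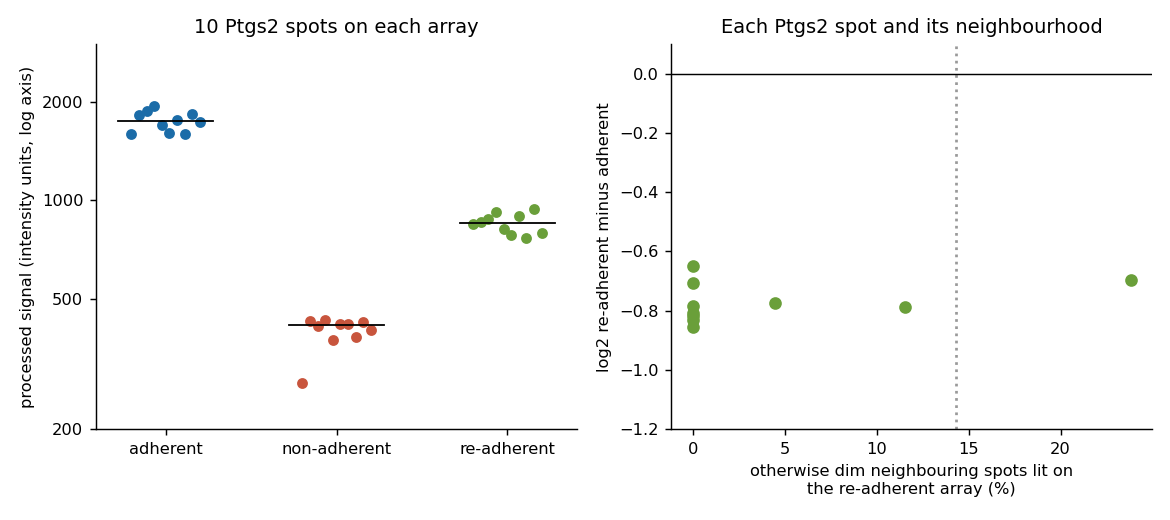
Left, processed signal (intensity units, log axis) of the 10 Ptgs2 spots on each array, with the median as a line. Right, the log2 difference between the re-adherent and adherent arrays of each spot against the percentage of otherwise dim neighbouring spots lit on the re-adherent array, where the dotted line is the 95th percentile over all spots (14.3%); the spot at 23.8% lies among the others.

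The 3 terminal synthases of the list differed from each other. Ptgis, which makes prostacyclin, had signals of 42110 units in adherent, 11431 in non-adherent and 54269 in re-adherent cells. It was 3.94-fold lower in suspension (log2 difference -1.98, technical error 0.20) and 6.11-fold higher on re-adhesion (2.61, technical error 0.20). Re-adherent cells were 0.63 above adherent cells, but only 0.16 above them with spike-in scaling, which is within the technical error.

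Ptgds, which makes prostaglandin D2, was dim, with signals of 46.3, 136 and 39.5 units in the order of the culture steps. It was 2.73-fold higher in suspension (log2 difference 1.45, technical error 0.24) and 2.67-fold lower again on re-adhesion (-1.42, technical error 0.25). Both steps were thus opposite in sign to those of Ptgis. At these low signals the background correction mattered, since the normexp correction gave 0.84 and -0.64, both under 2-fold.

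Ptges, the inducible prostaglandin E2 synthase, was read by 2 probes of the same RefSeq transcript that disagreed. The bright probe had signals of 14956, 21717 and 11595 units and differences of 0.44 in suspension, -0.54 on re-adhesion and -0.10 between re-adherent and adherent cells. The dim probe had signals of 223, 131 and 61.8 units and differences of -0.87, -0.72 and -1.59. The probes opposed each other in suspension, by more than the technical errors of 0.20 and 0.21, and the reason was not tested. No direction is therefore given for Ptges in suspension, whereas both probes were lower after re-adhesion than in suspension.

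Of the receptors, Ptger2 and Ptger4 encode EP2 and EP4, which respond to prostaglandin E2 by raising cyclic AMP. Ptger2 had signals of 115 units in adherent cells, 517 in suspension and 67.5 after re-adhesion. It was 4.21-fold higher in suspension (log2 difference 2.08, technical error 0.21) and 5.95-fold lower on re-adhesion (-2.57, technical error 0.23). Re-adherent against adherent cells differed by -0.50, or by -0.18 with the normexp background correction. Ptger4 had signals of 502, 378 and 252 units. Its differences were -0.51 in suspension, -0.22 on re-adhesion and -0.73 in re-adherent against adherent cells, each under 2-fold, and the last passed 2-fold in 1 of 11 other settings, at -1.21 with spike-in scaling. With local background subtracted the difference of Ptger4 in suspension was -0.18, within the technical error of 0.20.

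Hpgd encodes 15-hydroxyprostaglandin dehydrogenase, which inactivates prostaglandin E2 and other prostaglandins. Its brighter probe had signals of 79.9 units on the adherent, 1213 on the non-adherent and 560 on the re-adherent array. That made it 14.2-fold higher in suspension (log2 difference 3.83, technical error 0.21) and 1.68-fold lower on re-adhesion (-0.75, technical error 0.20). In re-adherent cells it was 8.43-fold above adherent cells (3.08, technical error 0.22). The second probe, with signals of 34.8, 499 and 232 units, gave differences of 3.74, -0.74 and 3.00, so both probes showed the same course. Across 11 other settings the difference in suspension lay between 3.06 and 4.13 and that between re-adherent and adherent cells between 2.41 and 3.11. The difference on re-adhesion lay between -1.11 and -0.65 and passed 2-fold in 4 of the 11 settings.

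Over the 13475 genes well above background on all arrays, those closest to Hpgd in both steps were Vipr1, Gpr84 and Slc40a1, with a largest gap to Hpgd of 0.17, 0.55 and 0.56 on the log2 scale. Their differences in suspension were 3.65, 3.36 and 3.36, and those between re-adherent and adherent cells were 2.79, 3.15 and 2.06. Vipr1 encodes a receptor for vasoactive intestinal peptide, Gpr84 a receptor for medium-chain fatty acids found on myeloid cells, and Slc40a1 the iron exporter ferroportin. The likeness rests on 3 arrays.

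**Figure D3:**
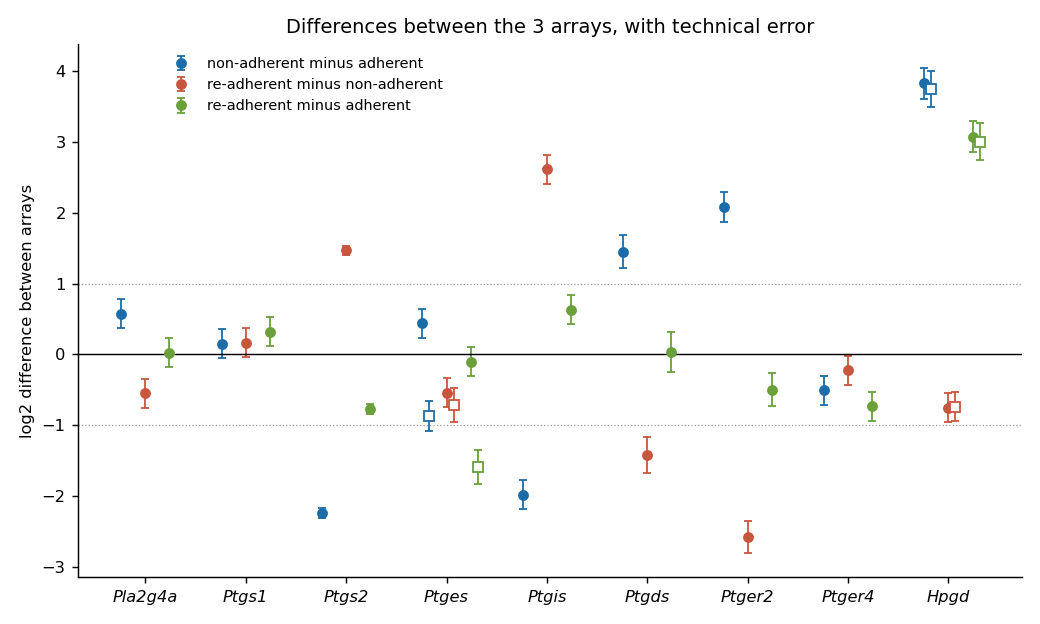
Log2 differences between the 3 pairs of arrays for the 9 genes, with the technical error as bars; filled circles are the brightest probe of a gene, open squares the second probe of Ptges and Hpgd, and dotted lines mark 2-fold. Hpgd stays high against adherent cells, and the 2 Ptges probes lie on opposite sides of 0 in suspension.

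Counted over the 9 members, 2 were lower and 3 were higher by over 2-fold in suspension than on plastic, where 14.7% of all 15393 genes were lower and 17.2% higher to that extent. From suspension to re-adhesion 2 members were over 2-fold lower and 2 higher, against 16.3% and 15.6% of all genes. Between re-adherent and adherent cells 0 members were lower and 1, Hpgd, was higher, against 4.9% and 4.84% of all genes. The median difference of the members was 0.44, -0.54 and 0.03 for these 3 pairs, beside -0.07, 0.08 and 0.06 for all genes. With so few members and 1 array per state, these shares describe the list only. The members were chosen with earlier results of these data known, so the counts are no test of the list.

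The rest of the pathway was read from a list of 41 further genes, of which 38 were measured. This list too was chosen with earlier results of these data known, so its counts are described only. In suspension 4 of them (10.5%) were over 2-fold lower and 12 (31.6%) higher, beside the 14.7% and 17.2% of all genes. On re-adhesion 12 (31.6%) were lower and 4 (10.5%) higher, beside 16.3% and 15.6% of all genes. Of the 4 genes lower in suspension, Ptger3 and Ptgfr rest on dim signals and are not shown to differ by 2-fold. With low signals raised to the detection limit that count was 2. Between re-adherent and adherent cells 6 (15.8%) were lower and 3 (7.89%) higher, beside 4.9% and 4.84% of all genes. With low signals raised to that limit 2 were lower and 1 higher. Their median difference was 0.24 in suspension and -0.32 on re-adhesion.

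Slco2a1, the transporter that takes prostaglandins up into cells for oxidation, had the largest difference of the list. Its signal was 15377 units in adherent cells, 550 in suspension and 9171 after re-adhesion. It was 29.9-fold lower in suspension (log2 difference -4.90, technical error 0.20) and 21.4-fold higher on re-adhesion (4.42, technical error 0.20). The transporter and Hpgd, which act one after the other in prostaglandin removal, thus had opposite differences in suspension. Whether the same cells held both transcripts was not tested in this bulk RNA. The other 4 genes of transport and breakdown, Abcc4, Ptgr1, Ptgr2 and Zadh2, differed less than 2-fold in each pair.

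Among 8 further prostanoid synthases, 3 were over 2-fold higher in suspension and 0 lower, where 17.2% and 14.7% of all genes were. Hpgds, the haematopoietic prostaglandin D2 synthase, had signals of 131, 2057 and 156 units and was 14.7-fold higher in suspension and 10.3-fold lower on re-adhesion. Tbxas1, the thromboxane synthase, had signals of 1628, 14010 and 2450 units and was 8.04-fold higher in suspension and 4.44-fold lower on re-adhesion. Prxl2b, a prostaglandin F synthase, had differences of 1.24 and -0.46. Of the others, Cbr1 (0.65), Akr1b3 (0.42) and Akr1c18 (0.47) were higher in suspension by less than 2-fold, and Ptges2 and Ptges3, the constitutive prostaglandin E2 synthases, were at -0.25 and -0.79.

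Of the 7 further prostanoid receptors, 6 were measured and 3 of them stood well above background in every state. Tbxa2r, the thromboxane receptor, had signals of 935, 286 and 658 units, which is 3.50-fold lower in suspension and 2.96-fold higher on re-adhesion. Ptgir, the prostacyclin receptor, had signals of 1165, 1505 and 422 units. It differed by 0.27 in suspension and was 2.77-fold lower on re-adhesion, ending 2.30-fold below adherent cells. Tbxa2r was thus lower in suspension and higher on re-adhesion, as Ptgis was. Ptger1 stood at -0.84 in suspension and 0.26 on re-adhesion. Ptger3 and Ptgfr, at 22.7 and 23.9 units, passed the detection limit in adherent cells alone, which puts them at least 1.73-fold and at least 1.83-fold higher there than in suspension. Ptgdr2 was near the limit, with 16.9 and 17.9 units before and during suspension and a signal not well above background after it, and Ptgdr stayed below that limit on each array.

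Genes of the leukotriene branch, which shares arachidonic acid with the prostaglandins, included 5 of 9 measured genes over 2-fold higher in suspension and 0 lower, again beside 17.2% and 14.7% of all genes. Alox5, the 5-lipoxygenase, had signals of 133, 1101 and 456 units and was 7.76-fold higher in suspension and still 4.13-fold above adherent cells after re-adhesion. Alox5ap, its activating protein, and Cysltr1, a receptor for cysteinyl leukotrienes, differed by 2.39 and 2.68 in suspension and by -1.58 and -2.43 on re-adhesion. Of the phospholipases, 4 of 10 measured were over 2-fold higher in suspension and 0 lower, beside the same shares of all genes. Such small groups on 1 array per state are described only. Pla2g7, a secreted enzyme that breaks down platelet-activating factor, was 4.04-fold higher in suspension and 8.89-fold lower on re-adhesion. Pla2g5 was not well above background on the adherent array, at 11.6 units, and at 118 units was at least 6.58-fold higher in suspension.

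Hpgds, Tbxas1, Alox5, Alox5ap, Ltc4s and Cysltr1 are known to be expressed by macrophages, whose markers had a median difference of 2.68 in suspension and of -1.60 on re-adhesion. Between re-adherent and adherent cells the median of the macrophage markers was 0.85. The differences in suspension of these 6 genes lay between 1.52 (Ltc4s) and 3.88 (Hpgds), and that of Hpgd was 3.83. Of 7 mast cell markers 4 were measured, with summed levels of 0.38, 0.81 and 0.51 in the order of the culture steps. In suspension Kit was 4.47-fold and Mcpt4 at least 5.82-fold higher than in adherent cells, Tpsb2 differed by -0.55, and neither Cpa3 nor Ms4a2 was well above background. After re-adhesion Cpa3, at 170 units, was at least 12.2-fold above adherent cells, whereas Kit was at least 3.28-fold below them. Tpsb2 differed by -0.80 between re-adherent and adherent cells, and Mcpt4 was not well above background on either of these arrays. Mesothelial markers had a median difference of -0.82 in suspension and 2.00 on re-adhesion, and endothelial markers 1.85 and -2.75. The part of these cell types in the values of the prostaglandin genes was not tested.

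**Figure D4:**
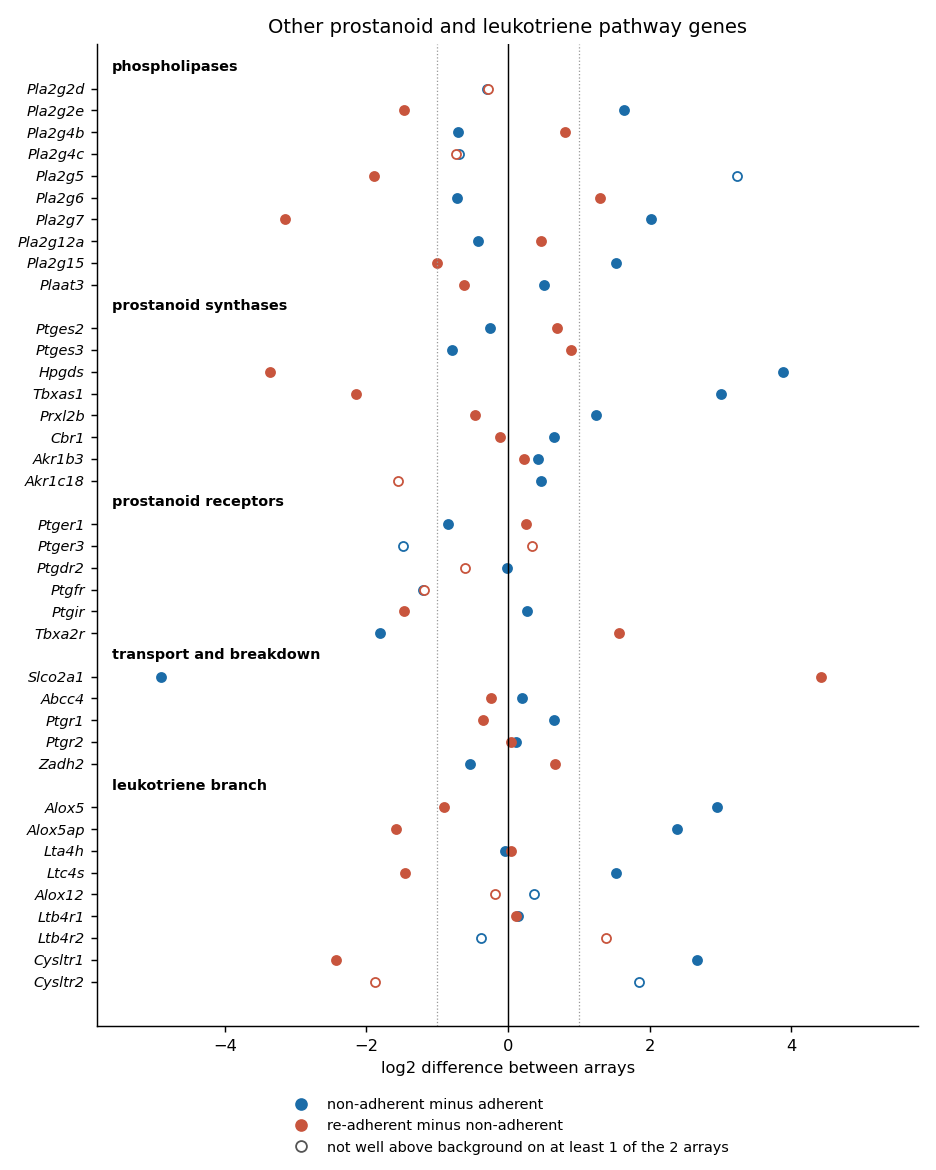
Log2 differences of 38 other genes of the prostanoid and leukotriene pathways, grouped by role, in suspension against adherent cells (blue) and on re-adhesion against suspension (red). Open circles are values where at least 1 of the 2 arrays was not well above background, dotted lines mark 2-fold, and the point furthest from 0 is Slco2a1 at -4.90.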

How the data were processed

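Total RNA of cardiac myofibroblasts was measured on 1-colour Agilent SurePrint G3 8x60K mouse arrays, 1 array per state, all on 1 slide with 1 scan time per the file headers. The authors deposited scanner output of Agilent Feature Extraction 10.10.1.1, with intensity values that were background-subtracted and spatially detrended, and a table of linear intensity that equalled the processed signal times 1.52, 1.52 and 1.62. The normalization is not named in the study. Coordinates given here belong to the RefSeq promoter table on GRCm38.p6 alone, since the probes were designed on another build.

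Here log2 processed signal was reduced by the 75th percentile of non-control spots. Spots marked as outliers were left out (154, 180 and 175), and spots of 1 probe were averaged. Probe names matched a RefSeq accession, without version, for 27235 of 55681 probes. Probes well above background on 1 or more arrays entered, and a gene was read by its brightest probe. Where 1 array was not well above background, the fold was computed against the dim signal or the lowest detected signal of that array, whichever was higher (16.7, 14.0 and 18.3 units) and written as at least that fold. The technical error was the root of the summed squares of the software errors on both arrays, which for repeated spots were treated as independent, and the number of arrays limits the precision. A difference counted as over 2-fold when it passed 1 on the log2 scale.

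Members and lists were chosen with earlier results of these data known. Named genes were the members, the other synthases and receptors of the pathway, other pathway genes over 4-fold different in any pair, defining markers, and the 3 genes nearest to the member with the largest difference in suspension. Ltc4s, Abcc4, Ptgr1, Ptgr2, Zadh2 and markers other than the defining ones fall outside this rule and were named after their values were seen. The files held no mean spot signal, so the normexp correction (limma 3.58.1, offset 50) took the median signal. Fold differences and the median of neighbouring spots were tested on simulated data, and the lit share was not. Python 3.11.15 and R 4.3.3 were used. Alternatives were other scalings, background corrections, filters, probe rules and a 4-fold limit.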

Additional observations from a re-analysis of the deposited data

How the results depend on the processing

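No paired analysis was possible because there is 1 array per state, and for the same reason no array could be left out. Across 11 alternatives, none of the 297 recomputed member differences reversed a difference over 2-fold. The limit for a shift was a fixed multiple of the technical error, wider than the error itself. Within that limit 269 stayed, and 28 moved further. Among the 269 was Ptgs1 in suspension, at 0.48 with local background subtracted in place of 0.15, a shift larger than its technical error of 0.20. Raising low signals to the floor and requiring detection on all arrays could change no member, as all were well above background throughout. Keeping flagged spots could not either, as no member spot was flagged. The mean over probes could change only Ptges and Hpgd. With these fixed settings included, over 2-fold differences in suspension were kept in all 11 for Ptgs2, Ptgis, Ptger2 and Hpgd. For Ptgds they were kept in 10. Smaller ones changed sign, as for Ptgs1 in suspension (-0.04 with spike-in scaling), Ptges in suspension (-0.21 as the mean over probes), and Pla2g4a (-0.45) and Ptgds (-0.44) in re-adherent against adherent cells with spike-in scaling. Spike-in scaling, on 6 probes, put the median of all genes at -0.27, -0.20 and -0.41 for suspension, re-adhesion and the whole course, in place of -0.07, 0.08 and 0.06.

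With 4-fold in place of 2-fold, 1 member was lower and 2 were higher in suspension, with 1 lower and 1 higher on re-adhesion. Over the whole course 0 members were lower and 1 was higher. Of the other pathway genes 1 was lower and 7 higher in suspension, and 4 lower and 1 higher on re-adhesion. Over the whole course 1 of them was lower and 1 higher. The share of all genes past 4-fold was not taken, so these counts have no background beside them. The normexp correction left 1 member lower on re-adhesion, and 2 pathway genes lower in suspension, with 2 lower and 1 higher over the whole course. Raising low signals to the floor gave 2 pathway genes lower in suspension and 2 lower and 1 higher over the whole course, as did requiring detection on all arrays (2, 2 and 1). Between re-adherent and adherent cells 1 member was lower without scaling, 2 with spike-in scaling and 1 with local background subtracted, and 1 pathway gene was higher with spike-in scaling. Apart from the higher limit and the narrower filter, the cause was not tested. Leaving out the Ptgs2 spot in the lit neighbourhood or its dimmest spot was chosen after seeing the data. The signals of Ptger3, Ptgfr and Ptgdr2 lie near the limit of detection.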
